A study of Mus musculus with 6 samples.

Results

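The IL-12 family is described here through 10 genes, which are its 5 cytokine subunits (Ebi3, Il27, Il12a, Il12b and Il23a), 4 of its receptor chains (Il27ra, Il12rb1, Il12rb2 and Il23r) and the transducer Stat4. They were taken by name and matched through their Entrez numbers to 10 of the 25206 rows of the value table, so every member was found. The family was selected with the knockout minus control differences of these same arrays already known, so those differences count as values it was chosen by. The members' values are therefore a description, and no p-value is given for them. Expression was compared on single-colour arrays between 3 samples of a mouse group 2 innate lymphoid cell (ILC2) line with Cbfb knocked out and 3 control samples of that line. Both groups were of the C57BL/6J background, received both IL-2 and IL-33 in culture (10 ng/ml), and carried the lentiviral construct LentiV2CRISPRGFP. Its guide was aimed at Cbfb in the knockout group and had no target in the control group. At day 6 after transduction, cells with GFP were sorted. GFP marks cells that took up the construct and not cells that were edited, and no label tells if replicates were grown apart, so the spread between them may be technical.

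Cytokines of the IL-12 family are pairs, each made of a helical subunit and a subunit shaped like a soluble cytokine receptor. The receptor-like Ebi3 joins Il27 to form IL-27 and Il12a to form IL-35, while the receptor-like Il12b joins Il12a to form IL-12 and Il23a to form IL-23. IL-12 and IL-23 share the receptor chain Il12rb1, which is completed by Il12rb2 for IL-12 and by Il23r for IL-23, and IL-27 is read by Il27ra with the common chain gp130. IL-12 acts largely through STAT4 and drives interferon-gamma in type 1 lymphocytes, and IL-27 is known to restrain mouse ILC2s. Macrophages and dendritic cells are the usual sources of these cytokines, and Ebi3 is also made by activated B cells and regulatory T cells.

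All values are log2 array values, on which a difference of 1 is a doubling of signal, and array medians lay between 3.57 and 3.63. Cbfb read 7.88, 7.69 and 7.91 in the knockout arrays, against 8.53, 8.73 and 8.70 in the control arrays (limma adjusted p = 0.00205), so its transcript was lower but present. Its DNA-binding partner gene Runx1 averaged 8.05 ± 0.18 in knockout and 6.78 ± 0.22 in control arrays (SD, n = 3 each; limma adjusted p = 0.00121). Of 12 measured ILC2 markers, 11 read above the array median on at least 1 array, among them Gata3 (10.68 in knockout and 10.58 in control), and Il17rb, the IL-25 receptor chain, read below it on all 6. In these 12, 1 was higher in the knockout (Rora), 4 were lower (Icos, Il7r, Il5 and Id2, with differences of -0.78, -0.56, -0.33 and -0.35) and 7 did not pass, and the summed linear signal was 18853 to 19470 in knockout and 21549 to 21977 in control arrays. In all, 2457 rows (9.75%) passed an adjusted p of 0.05, of which 1389 (5.51%) were higher and 1068 (4.24%) lower in the knockout. The count higher in the knockout was 861 without knockout replicate 2, 830 without knockout replicate 3, 763 without control replicate 2 and 906 without control replicate 3. The count lower in the knockout was 617, 687, 544 and 659 in these same 4 fits.

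In the fit across all rows, Ebi3 lay past the threshold as higher in the knockout, Stat4 as lower, and 8 members lay short of it. That is 1 member higher against 5.51% of all rows and 1 lower against 4.24%. Since the family was chosen with these values known, the counts describe the members and are no test of them. The knockout and control arrays did not overlap for 3 members, Ebi3, Il27ra and Stat4, where 27.5% of all rows had no overlap. The median difference of the members was -0.023, against -0.0067 over all rows, and their median absolute difference was 0.088, against 0.127 over all rows. In 6 of the 10 members the groups differed by less than 0.127, and Ebi3 and then Stat4 had the largest differences in size.

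**Figure D1:**
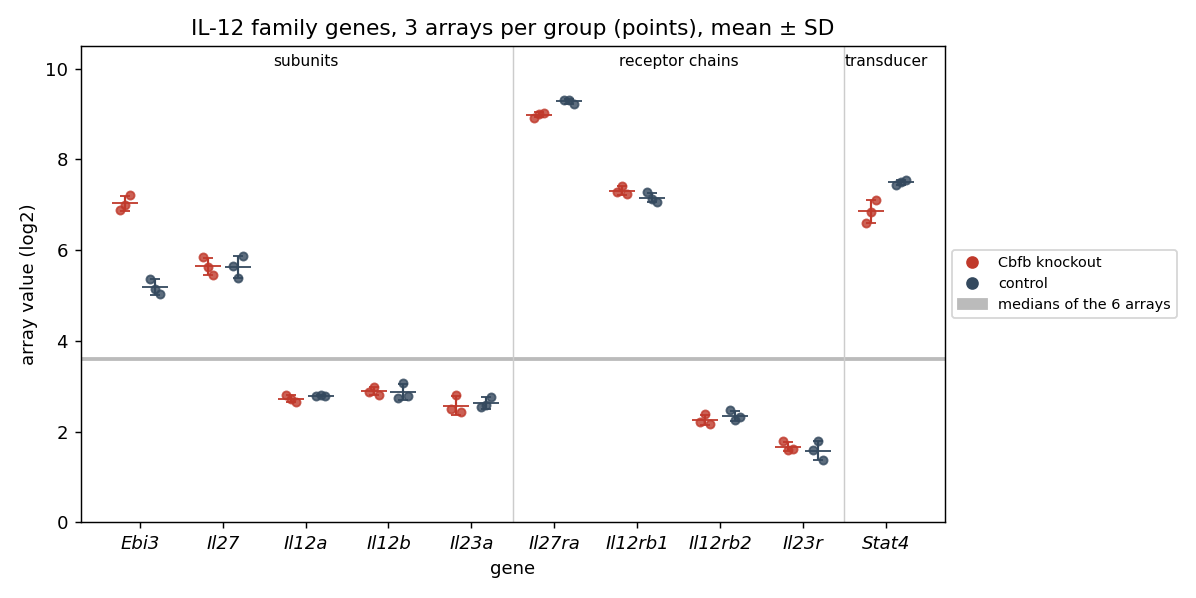
Log2 array values of the 10 IL-12 family genes (x axis) in the 3 Cbfb knockout arrays (red) and 3 control arrays (dark blue), with the mean and SD of each group; the grey band spans the medians of the 6 arrays. Ebi3 reads 6.88 to 7.21 in knockout and 5.04 to 5.37 in control arrays, and 5 genes lie under the band in both groups. Heights of different genes are not comparable, since each row has its own probes.

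Ebi3 (Entrez gene 50498), the receptor-like subunit of IL-27 and IL-35, read 6.88, 6.99 and 7.21 in the knockout arrays and 5.37, 5.14 and 5.04 in the control arrays. Every knockout array was above every control array, and the lowest knockout value exceeded the highest control value by 1.51. The means were 7.03 ± 0.17 in knockout and 5.18 ± 0.17 in control arrays (SD, n = 3 each), a difference of 1.84 with a standard error of 0.12, or 3.59-fold. Counting Ebi3 itself, 15 of the 25206 rows (0.0595%) had a difference at least as large. Its difference lay between 1.75 and 1.94 over the fits that left out 1 array.

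The promoter of Ebi3 is printed because this is the member with the largest difference, and those of Stat4 because it is the other member that passed. RefSeq sequences of build GRCm38.p6, running from 250 bases before to 50 bases after an annotated start, were found for 6 of the 10 members in 8 windows of 300 bases. Capitals mark letters that matched a searched motif on either strand. For RUNX the letters searched were TGTGGT, with TGCGGT as a variant. The STAT motif was TTCNNNGAA, the AP-1 motif TGANTCA. The NF-κB motif was a run of 3 G, a gap of 3 bases, then TTCC, and the interferon-stimulated response element was GAAA repeated after a gap of 2 bases. RUNX was included because CBFβ is the partner of RUNX proteins. The Ebi3 window lies at chr17:55952373-55952672 on the plus strand, and the Stat4 windows at chr1:51986898-51987197 and chr1:52007990-52008289, both on the plus strand.
Ebi3: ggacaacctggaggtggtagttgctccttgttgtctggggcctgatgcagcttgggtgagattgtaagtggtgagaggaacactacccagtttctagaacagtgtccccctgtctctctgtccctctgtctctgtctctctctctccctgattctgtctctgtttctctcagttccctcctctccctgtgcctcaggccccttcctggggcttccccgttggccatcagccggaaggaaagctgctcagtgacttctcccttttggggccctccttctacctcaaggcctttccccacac
Stat4, first start: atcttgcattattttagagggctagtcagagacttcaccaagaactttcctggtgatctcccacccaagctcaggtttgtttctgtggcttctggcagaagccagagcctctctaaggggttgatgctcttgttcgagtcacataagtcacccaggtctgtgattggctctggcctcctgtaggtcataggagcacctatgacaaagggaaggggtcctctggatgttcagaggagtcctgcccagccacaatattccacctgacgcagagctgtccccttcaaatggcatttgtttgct
Stat4, second start: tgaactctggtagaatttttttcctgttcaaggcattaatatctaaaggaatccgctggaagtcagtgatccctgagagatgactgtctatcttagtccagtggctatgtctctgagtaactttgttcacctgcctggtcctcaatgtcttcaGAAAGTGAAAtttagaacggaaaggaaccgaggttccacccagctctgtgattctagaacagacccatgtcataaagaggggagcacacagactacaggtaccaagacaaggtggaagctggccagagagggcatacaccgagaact
The Ebi3 window and the first Stat4 window held none of the 6 motifs, which says only that these letters are not in these windows. Sites of these factors with other letters, among them other forms of the NF-κB site, were not searched for. The second Stat4 window held GAAAGTGAAA, a match to the interferon-stimulated response element that begins 97 bases before the start, and 3.4% of 32851 promoter windows held such a match.

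RUNX letters were found in windows of 2 other members, Il12a and Il12rb2, where 22.4% of all windows held either form. Neither gene passed the test, and both read below the array median on all 6 arrays. The second Il12a window, at chr3:68691174-68691473 on the plus strand, is shown because it held the TGTGGT form, 126 bases before the start, where 16.8% of all windows held it on either strand.
Il12a, second start: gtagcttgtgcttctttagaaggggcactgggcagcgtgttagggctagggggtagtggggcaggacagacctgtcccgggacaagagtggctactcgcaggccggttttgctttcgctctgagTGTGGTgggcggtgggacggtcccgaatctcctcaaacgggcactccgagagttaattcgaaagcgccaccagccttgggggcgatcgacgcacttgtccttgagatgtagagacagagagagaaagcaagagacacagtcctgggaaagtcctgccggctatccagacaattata
The Il12rb2 window, at chr6:67376139-67376438 on the minus strand, held TGCGGT on the opposite strand 115 bases before the start, against 6.5% of all windows. A STAT match in that window, TTCTCAGAA, overlapped the RUNX letters by its last base, and 8.3% of all windows held a STAT match. The Il23r window, at chr6:67491806-67492105 on the minus strand, held an NF-κB match, GGGTTTTTCC, 142 bases before the start, against 5.6% of all windows. AP-1 letters, found in 7.8% of all windows, were in none of the members' 8 windows. These matches are letters in a short window and do not show binding.

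Neither of the helical subunits that pair with Ebi3 passed the threshold. Il27 (Entrez gene 246779), which completes IL-27, read 5.84, 5.63 and 5.45 in knockout arrays and 5.64, 5.39 and 5.87 in control arrays. The groups overlapped fully, and the means of 5.64 ± 0.20 and 5.63 ± 0.24 differed by 0.007, with a 95% interval of -0.33 to 0.34. Il12a (Entrez gene 16159), which completes IL-35 and IL-12, read 2.80, 2.71 and 2.66 in knockout arrays and 2.78, 2.80 and 2.78 in control arrays. The highest knockout value equalled the highest control value, and the difference was -0.063 with a standard error of 0.080.

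The subunits of IL-12 and IL-23 read low in both groups. Il12b (Entrez gene 16160), the subunit that both cytokines share, read 2.87, 2.98 and 2.81 in knockout arrays, against 2.74, 3.07 and 2.79 in control arrays. Il23a (Entrez gene 83430), which completes IL-23, read 2.49, 2.80 and 2.43 in knockout arrays, against 2.53, 2.58 and 2.77 in control arrays. The groups overlapped for both genes, with differences of 0.02 (SE 0.11) for Il12b and -0.053 (SE 0.12) for Il23a. Il12a, Il12b, Il23a, Il12rb2 and Il23r, 5 of the 10 members, read below the array median on all 6 arrays, and no detection call tells signal from background there. Their differences were at most 0.09 in size, and changes at such values can be understated, so these data do not show whether the 5 genes were expressed.

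Among the receptor chains, Il27ra (Entrez gene 50931), the chain specific to IL-27, read 8.92, 9.00 and 9.02 in knockout arrays and 9.31, 9.31 and 9.22 in control arrays. Every knockout array was below every control array, by at least 0.20. The means were 8.98 ± 0.053 and 9.28 ± 0.052, a difference of -0.30 with a standard error of 0.080, or 1.23-fold lower in the knockout. This difference did not pass the threshold in the planned fit and passed it in 4 of 14 alternative fits, none of which left out an array. The signalling chain gp130, encoded by Il6st and named here for its role beside Il27ra, averaged 6.20 ± 0.078 in knockout and 5.85 ± 0.14 in control arrays, a difference of 0.35 that did not pass (limma adjusted p = 0.0679).

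Il12rb1 (Entrez gene 16161), the chain shared by the IL-12 and IL-23 receptors, read 7.27, 7.42 and 7.23 in knockout arrays and 7.27, 7.13 and 7.07 in control arrays. The groups overlapped, and the difference was 0.15 with a standard error of 0.094. Its partner for IL-12, Il12rb2 (Entrez gene 16162), read 2.21, 2.39 and 2.17 in knockout arrays, against 2.47, 2.26 and 2.31 in control arrays. Its partner for IL-23, Il23r (Entrez gene 209590), read 1.78, 1.60 and 1.62 in knockout arrays, against 1.59, 1.78 and 1.37 in control arrays. Both overlapped between groups, with differences of -0.09 (SE 0.099) for Il12rb2 and 0.087 (SE 0.12) for Il23r. The shared chain thus read above the array median on every array and the chain specific to each cytokine below it, which is a position within each array and not a comparison of transcript amounts.

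Stat4 (Entrez gene 20849), which carries the IL-12 signal to the nucleus, read 6.60, 6.85 and 7.11 in knockout arrays and 7.43, 7.49 and 7.55 in control arrays. Every knockout array was below every control array, by at least 0.32, and the knockout arrays were more widely spread. The means were 6.85 ± 0.26 in knockout and 7.49 ± 0.060 in control arrays (SD, n = 3 each), a difference of -0.64 with a standard error of 0.13, or 1.55-fold lower in the knockout. Over all rows, 390 (1.55%) had a difference as low or lower. Stat4 no longer passed the threshold without knockout replicate 2 (-0.64), without control replicate 1 (-0.67), without control replicate 2 (-0.64) or without control replicate 3 (-0.61), and in these fits no member passed as lower.

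**Figure D2:**
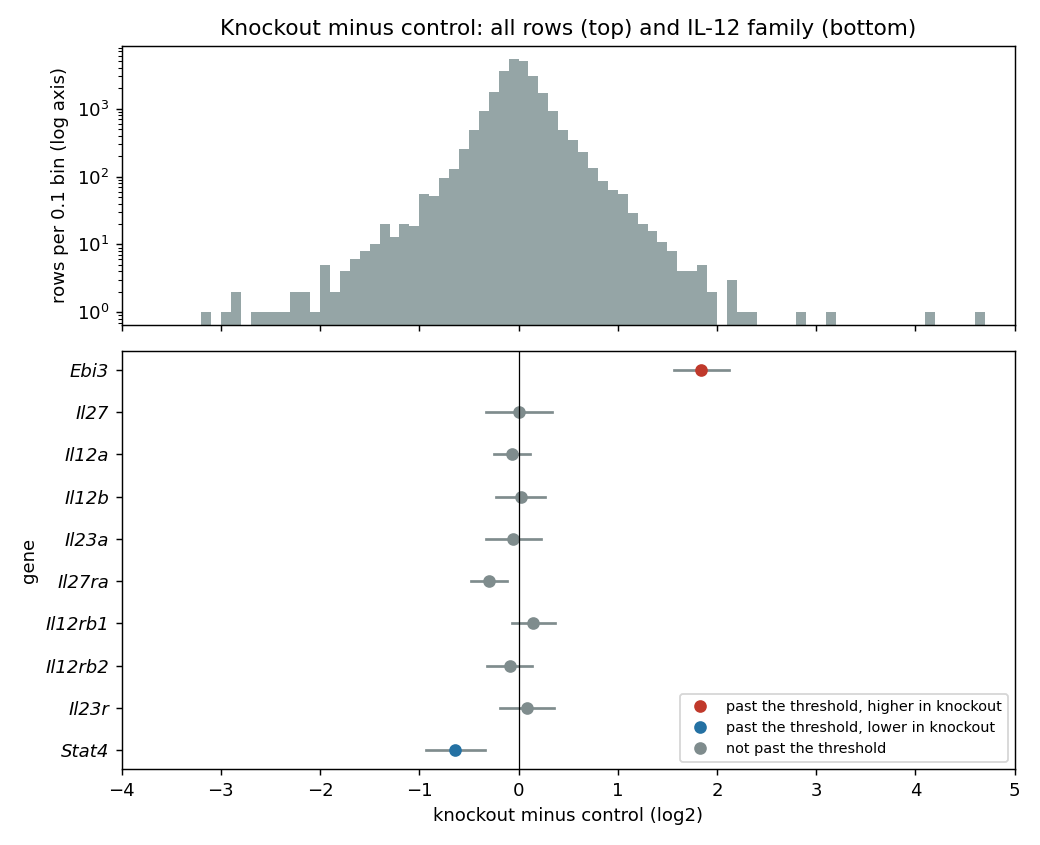
Knockout minus control differences (log2, x axis) of all 25206 rows as a histogram with a log count axis (top) and of the 10 IL-12 family genes with 95% intervals of the limma fit (bottom). Ebi3 lies at 1.84 in the thin right tail of the histogram, Stat4 at -0.64 and Il27ra, which did not pass the threshold, at -0.30. The intervals are per gene and not adjusted over rows. Since the genes were chosen with these differences known, the intervals are a description and no test.

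Genes around the family were taken from 7 lists, drawn up from general knowledge with earlier results of these data known, and described by counts and medians. Their counts and adjusted p-values are therefore not independent of those results. Each count stands against the 5.51% of all rows that were higher and the 4.24% that were lower, and each median against -0.0067 over all rows. Some genes stand in more than 1 list, as Socs3, Irf1 and Batf do.

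Transcription factors known to act on IL-12 family subunit genes in myeloid or lymphoid cells had 10 lower, 0 higher and 10 not past the threshold among 20 measured. Their median difference was -0.33, and the differences of the 10 lay between -2.66 and -0.36. This median was -0.39 to -0.32 with 1 array left out and -0.42 with rows above the median level alone. Rel encodes c-Rel, an NF-κB protein that mouse macrophages need for normal Il12b expression. It read 6.33, 6.91 and 6.61 in knockout arrays and 9.49, 9.45 and 8.89 in control arrays (limma adjusted p = 0.000245). Irf4, a factor of activated lymphocytes, averaged 8.32 ± 0.13 in knockout and 9.66 ± 0.035 in control arrays (limma adjusted p = 0.000194). Irf8, which drives Il12b in myeloid cells, averaged 6.95 ± 0.032 in knockout arrays and read 7.88 in every control array (limma adjusted p = 0.000394). Ets1, a lymphoid transcription factor gene, averaged 8.52 ± 0.055 in knockout and 9.26 ± 0.042 in control arrays (limma adjusted p = 0.00129). Ebi3 was therefore higher in the same arrays in which these factors were lower, and whether the factors have a part in its difference was not tested.

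The receptor kinases, STATs and their inhibitors, in a list that also holds the receptor chain genes Il6ra and Il6st, moved in both directions. Of 19 measured, 4 were higher, 4 lower and 11 not past the threshold, with a median of -0.063 (-0.098 to -0.015 with 1 array left out). Stat2, a transducer of type I interferon signals, rose to 5.42 ± 0.015 in knockout, against 4.47 ± 0.14 in control arrays (limma adjusted p = 0.000859). Il6ra, the IL-6 receptor chain, rose to 5.69 ± 0.21 in knockout, against 4.61 ± 0.12 in control arrays (limma adjusted p = 0.00162). Stat5a, which acts downstream of the IL-2 receptor, fell to 8.33 ± 0.17 in knockout, against 9.02 ± 0.061 in control arrays (limma adjusted p = 0.00557), and Socs3, an inhibitor of gp130 signalling, fell to 9.53 ± 0.079, against 10.03 ± 0.14 (limma adjusted p = 0.0174). Leaving out any 1 of the 6 arrays reduced the count of 8 to between 3 and 5, and Socs3 missed the threshold without knockout replicate 1, knockout replicate 3, control replicate 1 or control replicate 2 (limma adjusted p 0.052 to 0.0671).

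Genes that IL-27 raises in lymphocytes had 6 lower, 1 higher and 6 not past the threshold among 13 measured, with a median of -0.22, which was -0.50 with rows above the median level alone. Il10, an anti-inflammatory cytokine gene, read 8.55, 8.38 and 8.42 in knockout arrays and 10.19, 10.27 and 10.08 in control arrays (limma adjusted p = 7.54e-05). The inhibitory receptor gene Ctla4 averaged 6.87 ± 0.23 in knockout and 9.00 ± 0.17 in control arrays (limma adjusted p = 0.000152). Havcr2, which encodes the inhibitory receptor TIM-3, averaged 6.40 ± 0.025 in knockout and 7.92 ± 0.28 in control arrays (limma adjusted p = 0.000573). The member that rose was Maf, whose protein drives Il10 in T cells, to 9.96 ± 0.021 in knockout, against 9.02 ± 0.046 in control arrays (limma adjusted p = 0.000415). The list holds genes that many other signals control too.

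Genes that IL-12, alone or with IL-18, raises in lymphocytes had 3 lower, 1 higher and 12 not past the threshold among 16 measured, with a median of -0.055. This median was -0.13 without control replicate 2 and -0.023 with rows above the median level alone. Below the array median on all 6 arrays were 4 of the 16, among them Ifng (2.47 in knockout and 2.63 in control). The cytotoxic granule genes Gzmb (11.60 in knockout and 12.06 in control, a difference of -0.45; limma adjusted p = 0.0109) and Prf1 (-0.49; adjusted p = 0.0154) fell, as did the protease gene Furin (-0.32; adjusted p = 0.0442). The chemokine gene Ccl5 rose by 0.81, to 4.07 ± 0.12 in knockout, against 3.26 ± 0.090 in control arrays (limma adjusted p = 0.00205). Its 3 control arrays read below the array median, so this difference is approximate. The count of 4 fell to 1 without control replicate 2 and to 2 without control replicate 3, and Furin did not pass in any of the 6 fits without 1 array. Gzmb missed the threshold without control replicate 2 (limma adjusted p = 0.0503), and Prf1 without control replicate 2 (0.0655) or control replicate 3 (0.0569).

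Genes of the IL-23 response and type 3 lymphocytes rose in 3 of 13 measured members and fell in 2, with a median of -0.13 (-0.088 without knockout replicate 3). Below the array median on all 6 arrays were 6 of the 13, among them Il17f and Il22. Rora, a nuclear receptor gene that ILC2s and type 3 cells both use, averaged 5.53 ± 0.29 in knockout and 3.32 ± 0.35 in control arrays (limma adjusted p = 0.000562). It read below the array median on 2 control arrays, so this difference is approximate. Il1r1, an IL-1 receptor gene, rose by 0.52 (adjusted p = 0.0138) at values below the array median. The ligand-activated factor gene Ahr had a difference of -0.52 (limma adjusted p = 0.00839) and the GM-CSF gene Csf2 one of -0.57 (adjusted p = 0.0214), both lower in the knockout. The count of 5 was 3 without knockout replicate 1, knockout replicate 2, control replicate 1 or control replicate 2. Csf2 missed the threshold without each of these 4 arrays and Il1r1 without control replicate 3.

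Cytokines and receptor chains of the IL-6 family, whose receptors resemble Ebi3 in structure, had 3 lower, 0 higher and 8 not past the threshold among 11 measured, with a median of -0.11. This median was -0.22 without knockout replicate 1, -0.068 without knockout replicate 3 and -0.42 with rows above the median level alone. Il6 read 4.10, 4.33 and 4.59 in knockout arrays and 7.17, 7.58 and 7.77 in control arrays (limma adjusted p = 9.21e-05), the opposite direction to Ebi3. Osm, the oncostatin M gene, had a difference of -0.74 (limma adjusted p = 0.00128) and Lif one of -0.47 (adjusted p = 0.00836), while the oncostatin M receptor gene Osmr differed by 0.25 and did not pass (adjusted p = 0.195). Among 14 measured Toll-like receptor, CD40 and IL-1 family signalling genes, which raise IL-12 family subunits in myeloid cells, 2 rose and 1 fell, with a median of -0.008 (-0.021 to 0.033 with 1 array left out). Tlr4, the endotoxin receptor gene, rose by 0.84 (limma adjusted p = 0.0255) and the lipopeptide receptor gene Tlr1 by 0.42 (adjusted p = 0.0462), while the adaptor gene Tirap had a difference of -0.33 (adjusted p = 0.0414) and the DNA-sensing Tlr9 one of -0.29 that did not pass (adjusted p = 0.112). The count of 3 was 0 without knockout replicate 2 or without any 1 of the control replicates, and 1 without knockout replicate 1. Tirap passed in none of the 6 fits that left out an array.

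**Figure D3:**
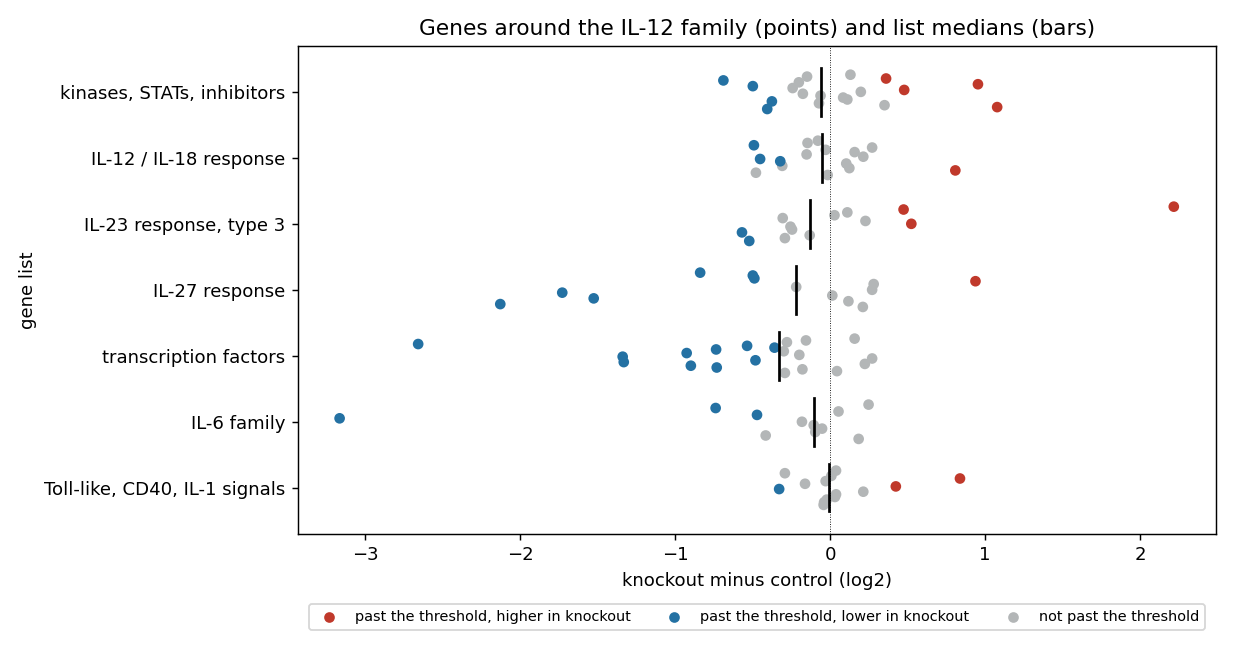
Knockout minus control differences (log2, x axis) of the measured genes of 7 lists around the IL-12 family (1 row of points per list), coloured by the limma call, with a black bar at each list's median. The transcription factor list has 10 genes lower and 0 higher, and its median of -0.33 is the lowest of the 7 in this fit. With rows above the median level alone, the list of genes that IL-27 raises had the lower median (-0.50 against -0.42).

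Markers of cells that usually make or answer these cytokines were set beside the members. Their counts stand against the 5.51% of all rows that were higher and the 4.24% that were lower. The samples were sorted cells of an ILC2 line, so signal of these markers need not come from other cell types. In bulk arrays, fewer cells of a type and less RNA per cell cannot be told apart. Of 16 measured macrophage, monocyte and dendritic cell markers, Itgax fell, 0 rose and 10 read below the array median on all 6 arrays, among them Adgre1 (1.97 in knockout and 2.15 in control). Their median difference was -0.035, and their summed linear signal was 205 to 237 in the knockout arrays, against 260 to 322 in the control arrays. Among the brighter of them, Itgax read 4.77 in knockout and 5.81 in control, and H2-Ab1 5.15 and 6.11, with overlapping arrays. Cd68, similarly bright, read 5.84 in knockout and 5.87 in control, and neither it nor H2-Ab1 passed. Whether such cells were present, or had a part in the difference of Ebi3, was not tested. Of 9 measured B cell and plasma cell markers none passed the test, and their summed signal was 244 to 259 in knockout and 241 to 261 in control arrays. Of 12 measured T cell markers Trac, Cd247 and Foxp3 fell, 0 rose and 9 did not pass, among them Cd3g and Cd4, higher by 0.15 and 0.21. Below the array median on all 6 arrays were 6 of the 12. The summed signal of the 12 was 224 to 254 in knockout and 303 to 314 in control arrays. The brightest of them, Lat (6.25 in knockout and 6.71 in control), did not pass. Markers of NK cells and ILC1s, which express Stat4, fell in 4 of 9 measured members, led by Nkg7 with a difference of -1.53 (limma adjusted p = 0.000155). Of the rest, 0 rose and 5 did not pass, among them Klrb1c and Ncr1, higher by 0.34 and 0.07. Ncr1 and Eomes read below the array median on all 6 arrays, and Tbx21 and Klrb1c on 5. The median difference of these 9 was -0.31, and their mean log2 level was 4.52 to 4.65 in knockout and 5.0 to 5.13 in control arrays. Their summed signal, to which the bright granzyme gene Gzma gives the most (10.94 in knockout and 11.11 in control, not past the threshold), was 2124 to 2406 in knockout and 2396 to 2796 in control arrays. Whether NK cells or ILC1s were present, or had a part in the difference of Stat4, was not tested.

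The rows most like Ebi3 were found by the root mean square difference over the 6 arrays, after each row's control mean was subtracted, among rows with a gene symbol. The 5 nearest were Enpp6 (root mean square difference 0.103), Fgf15 (0.111), B4galt4 (0.121), Evi5 (0.13) and Camsap3 (0.133). Enpp6, which encodes a choline-specific phosphodiesterase, read 5.81, 6.08 and 6.17 in knockout arrays and 4.38, 4.18 and 4.25 in control arrays. Fgf15, a hormone gene best known from the ileum, read 5.21, 5.31 and 5.59 in knockout arrays, against 3.58, 3.59 and 3.59 in control arrays. B4galt4, which encodes a galactosyltransferase, had a difference of 1.71, Evi5 one of 1.87 and Camsap3, which encodes a protein of microtubule minus ends, one of 1.75. The groups overlapped in none of these 5 rows, as the measure of likeness makes likely. The control means of Fgf15, Evi5 and Camsap3 (3.59, 3.55 and 3.18) lay under 3.6, the median of all group means, so their differences are approximate. Ranked by the size of the difference alone, Evi5 and Fgf15 stayed among the 5 nearest rows.

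**Figure D4:**
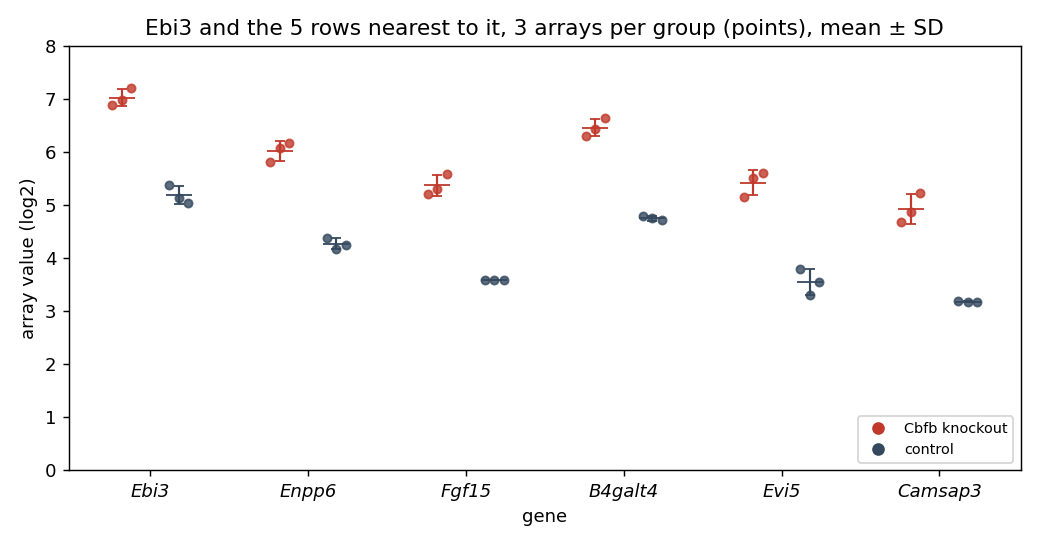
Log2 array values of Ebi3 and the 5 rows nearest to it (x axis) in 3 Cbfb knockout arrays (red) and 3 control arrays (dark blue), with the mean and SD of each group. All 6 rows have every knockout array above every control array, with differences of 1.71 to 1.87.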

How the data were processed

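Total RNA of 6 samples was labelled with biotin and measured on single-colour arrays, per the labels. The authors' deposited values are on a log2 scale, read from their range (0.66 to 12.51), and per the submitters' processing notes the tools were limma 3.14.4 and RMA, whose roles are not stated. If RMA was used, arrays were quantile-normalised and low values compressed, which hides a shift common to most genes and understates changes at low values. The array's genome build is not given in the sources used here. All 23185 rows with a gene symbol matched RefSeq genes by Entrez number, and 2021 rows had none.

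Values were used unfiltered. Knockout minus control was fitted in limma 3.58.1 (R 4.3.3) with 1 coefficient per group, with Benjamini-Hochberg adjustment over 25206 rows and a threshold of 0.05. Precision is limited by the number of arrays, so a gene that did not pass is not thereby shown to be unchanged. The fit was tested on simulated data, where it recovered 16.4% of changes of 0.5 and 89.6% of changes of 1. Of 147 calls there, 10 were of unchanged rows. Fewer rows were changed there than passed here, which makes the adjusted threshold stricter there. The recovered shares are therefore approximate and may be too low for these data. Members and lists were chosen with earlier results of these data known. Named were the members, Cbfb and its RUNX partners, up to 4 genes per list by smallest adjusted p, the rows nearest to Ebi3, and markers where needed. Il6st was added for its role. Some listed genes and all protein sequences were not analysed here. Runx3 differed by 0.24 and did not pass (limma adjusted p = 0.198). Alternatives were the replicate block, each array left out, 2 rescalings, 2 row filters, 2 other variance estimates and array weights.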

Additional observations from a re-analysis of the deposited data

How the results depend on the processing

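Over 14 alternatives per result (13 where a row filter removed a low gene), Ebi3 was higher in all, by 1.75 to 1.94 when 1 array was left out, and it was the 1 member counted as higher in each, which describes a member chosen on these values. No called value changed sign. The count of members lower in the knockout was 0 to 1 over fits that left out 1 array, and 2 with rows above the median level alone, with a trended and robust prior and with array weights, through Il27ra. Il27ra passed there and in the ordinary unmoderated test, with differences of -0.30 in all of these fits. Stat4 lay between -0.77 and -0.51 with 1 array left out, and -0.64 in the ordinary unmoderated test, where it did not pass. Without 1 array, rows higher in the knockout numbered 763 to 1113 and rows lower 544 to 786. The ordinary unmoderated test gave 672 and 582, and the trended and robust prior 1626 lower. In that ordinary test the counts past the threshold were 4 for kinases and STATs, 2 for the IL-23 list and 1 for Toll-like receptor signals. With 1 array left out, counts were 3 to 5 for kinases and STATs, 1 to 3 for IL-12 responses, 3 to 4 for the IL-23 list and 0 to 2 for Toll-like receptor signals, where fewer arrays entered the fit. Elsewhere the cause was not tested. With the replicate number as a block 1027 rows were higher and 718 lower, and Toll-like receptor signals had 1 call. Deviations of same-numbered arrays correlated by 0.025, 0.007 and 0.054, so the numbers were not taken to pair the samples. On the gene's strand alone, TGCGGT was in 0 member windows, against 1 on both strands.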
